A study of Mus musculus with 9 samples.

Results

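Genomic imprinting keeps one parental copy of a gene silent. At most imprinted loci the choice is set by a germline differentially methylated region, a CpG-rich promoter that is methylated on the chromosome from one parent, usually the mother. CTCF, the zinc finger protein that anchors chromatin loops and insulates neighboring domains, binds many of its sites only when they are unmethylated, and at the *H19* control region it binds the unmethylated maternal copy. The loci described here are smaller than the *H19* or *Snrpn* clusters, and each has its control region at a promoter: the shared promoter of *Peg3*, a zinc finger gene, and *Usp29*, a deubiquitinase gene, with maternally expressed *Zim1* beside them; the promoters of *Gnas*, which encodes the stimulatory G protein alpha subunit, and of its antisense RNA *Nespas*; the shared promoter of *Peg10*, a retrotransposon-derived gene, and *Sgce*, which encodes epsilon-sarcoglycan; and promoters of *Mest*, a hydrolase-like gene, *Grb10*, a signaling adaptor that restrains growth, and *Plagl1*, a zinc finger transcription factor.

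The members are the peaks of the merged CTCF peak list that overlap the body of any of these 10 genes or 10 kb on each side (GRCm38, GENCODE M21). There were 95 such peaks of 225769 in the list. The Peg3 locus held 21, the Gnas locus 15, the Peg10 locus 5, the Mest locus 6, the Grb10 locus 38 and the Plagl1 locus 10. The control region of each locus was taken as the CpG island within 1 kb of the annotated starts named above, and 8 members lay within 500 bp of such an island. The starts used were not uniform. At *Gnas* the most upstream start was left out, and at *Grb10* the starts within 5 kb of the most upstream one. The rule takes in promoter islands that are not germline methylated regions, those of Nesp, *Gnas* exon 1 and the most upstream *Plagl1* start, so values are also given for the 5 peaks at the *Peg3*, Nespas, *Mest*, *Grb10* and main *Plagl1* promoters, a choice made after the data were seen.

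CTCF ChIP-seq was made from primary female neural stem cells (NSCs) grown from the cortices of C57Bl/6 embryos of embryonic day 14.5. The Smchd1GFP column stands for 3 lines homozygous for a GFP-tagged but otherwise wild-type *Smchd1* (Smchd1 GFP/GFP), a chromatin repressor that acts at some imprinted clusters and on the inactive X chromosome. The MommeD43-GFP column stands for 3 lines homozygous for the MommeD43 missense allele with the same tag (Smchd1 MommeD43-GFP/MommeD43-GFP). The Smchd1_del column stands for 2 lines with *Smchd1* deleted (Smchd1 del/del). The deleted lines carry no tag, and they were made in culture from Smchd1 flox-flox cells with a Cre retrovirus and puromycin selection, steps the other lines did not go through, so the deletion cannot be told apart from the absent tag, the virus or the selection. One input library came from a control line and has no column. CTCF occupancy does not report cell type or the *Smchd1* deletion, so those labels were taken as given, and in an inbred strain the parental copies cannot be told apart: each value sums both.

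The table gives 1 value per peak and genotype, the authors' mean over libraries of log2 RPM, the reads over a peak per M (mega) reads of its library, with no single libraries. There is therefore no spread between lines, no test and no p-value, and the error given with a value is the counting error read back from the steps of whole reads. The libraries held 41.7, 49.2 and 49.98 M reads on geometric average in Smchd1GFP, MommeD43-GFP and Smchd1_del, and a peak of median level held 30.0, 34.9 and 34.5 reads per library. A longer peak collects more reads, so peaks are compared with each other only as RPM per kb of peak, and genotypes as differences of log2 RPM within a peak. A peak was listed if called in any genotype, so a short peak can rest on 1 genotype.

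Sequences of 3 kinds are printed here, to show what the occupied peaks hold. They run 5′ to 3′ in GRCm38, with the motif in capitals. The first set is the core CTCF motif, a 12-base consensus searched on both strands, which occurred in only 3 of the 95 members (3.16%, against 3.79% of all merged peaks), all outside control regions. Of merged peaks of like length, 1.05% to 32.4% held it, depending on the length, so most peaks like the 8 control region peaks lack it too. It lay once in the *Usp29* intron peak chr7:6917251-6919950, at 2 places in the *Usp29* intron peak chr7:6936751-6942450, and once in the *Plagl1* peak chr10:13126951-13129200.
Usp29 intron, chr7:6918437-6918496, minus strand: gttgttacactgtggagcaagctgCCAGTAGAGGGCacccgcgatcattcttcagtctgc
Usp29 distal intron, chr7:6937292-6937351, minus strand: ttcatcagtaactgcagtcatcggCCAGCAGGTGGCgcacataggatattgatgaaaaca
Usp29 distal intron, chr7:6940911-6940970, plus strand: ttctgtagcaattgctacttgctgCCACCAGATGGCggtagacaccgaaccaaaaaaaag
Plagl1, chr10:13127483-13127542, minus strand: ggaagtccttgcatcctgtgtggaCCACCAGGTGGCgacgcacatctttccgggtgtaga

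The second set is a relaxed form, CCNNNAGNNGGC, which contains the core motif and was searched the same way. It occurred in 18 members (18.9%, against 24.5% of all merged peaks) and in 5 of the 8 control region peaks, with 3 copies each at Peg3 and Nespas and 1 each at Nesp, *Gnas* exon 1 and Mest, of which 4 are shown. The Nespas peak held 1 copy in the Nespas island and 2, overlapping on opposite strands, in a *Gnas* island. Labels below name the control region peak, not the island. The Mest motif and the first Peg3 motif printed lie outside their islands, chr6:30736773-30738978 and chr7:6729141-6730537. Of merged peaks within 20% of the length of the Peg3 control region peak, 78.6% held the relaxed motif. Of those near the Nespas, Nesp and Mest peaks 92.8%, 81.1% and 71.5% did, so it is usual in peaks that long. Of peaks as short as that of *Gnas* exon 1, 15.5% held it.
Peg3 control region, chr7:6727381-6727440, minus strand: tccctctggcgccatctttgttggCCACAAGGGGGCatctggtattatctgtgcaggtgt
Peg3 control region, chr7:6729241-6729300, plus strand: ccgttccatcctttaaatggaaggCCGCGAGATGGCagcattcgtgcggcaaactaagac
Nespas control region, chr2:174295430-174295489, minus strand: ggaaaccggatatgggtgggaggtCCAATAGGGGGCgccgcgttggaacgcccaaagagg
Mest control region, chr6:30736383-30736442, plus strand: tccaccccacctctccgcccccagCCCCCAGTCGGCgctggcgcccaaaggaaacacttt

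The third set was searched after the Peg3 stretch had been read: the motif GGCGCCATNTT, bound by YY1, a zinc finger protein known to occupy a repeat array in the *Peg3* control region. It does not overlap the relaxed motifs here. The Peg3 control region peak held 7 copies, all on the minus strand, over 2299 bp. Of 225769 merged peaks, 717 held at least 1 copy (0.318%), and 2 held as many as 7. The only other member with a copy was the Nespas control region peak, with 1.
Peg3 copy 1, chr7:6727289-6727323, minus strand: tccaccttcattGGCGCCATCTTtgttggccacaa
Peg3 copy 2, chr7:6727411-6727445, minus strand: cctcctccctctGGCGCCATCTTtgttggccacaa
Peg3 copy 3, chr7:6727833-6727867, minus strand: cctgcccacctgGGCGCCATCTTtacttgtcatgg
Peg3 copy 4, chr7:6728439-6728473, minus strand: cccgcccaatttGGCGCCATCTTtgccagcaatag
Peg3 copy 5, chr7:6728868-6728902, minus strand: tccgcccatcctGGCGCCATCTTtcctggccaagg
Peg3 copy 6, chr7:6729471-6729505, minus strand: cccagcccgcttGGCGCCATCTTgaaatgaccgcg
Peg3 copy 7, chr7:6729577-6729611, minus strand: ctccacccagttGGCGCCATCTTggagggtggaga
Nespas copy, chr2:174294741-174294775, plus strand: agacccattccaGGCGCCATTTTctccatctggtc

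As a group the control region peaks were long, GC-rich and CpG-rich. Their median length was 2925 bp against 750 bp for the 87 other members, their median GC content 55.3% against 47.8%, and their observed over expected CpG ratio 0.640 against 0.196. CpG content was part of the rule that found them, so these figures describe the rule. Their median occupancy was 1.42 RPM per kb, against 0.966 for the other members and 0.995 over all merged peaks. The 95 members together had a median of 0.980 RPM per kb and lay in promoters (21), exons (23), introns (42) and intergenic sequence (9), where a promoter is the 1 kb around an annotated start.

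**Figure D1:**
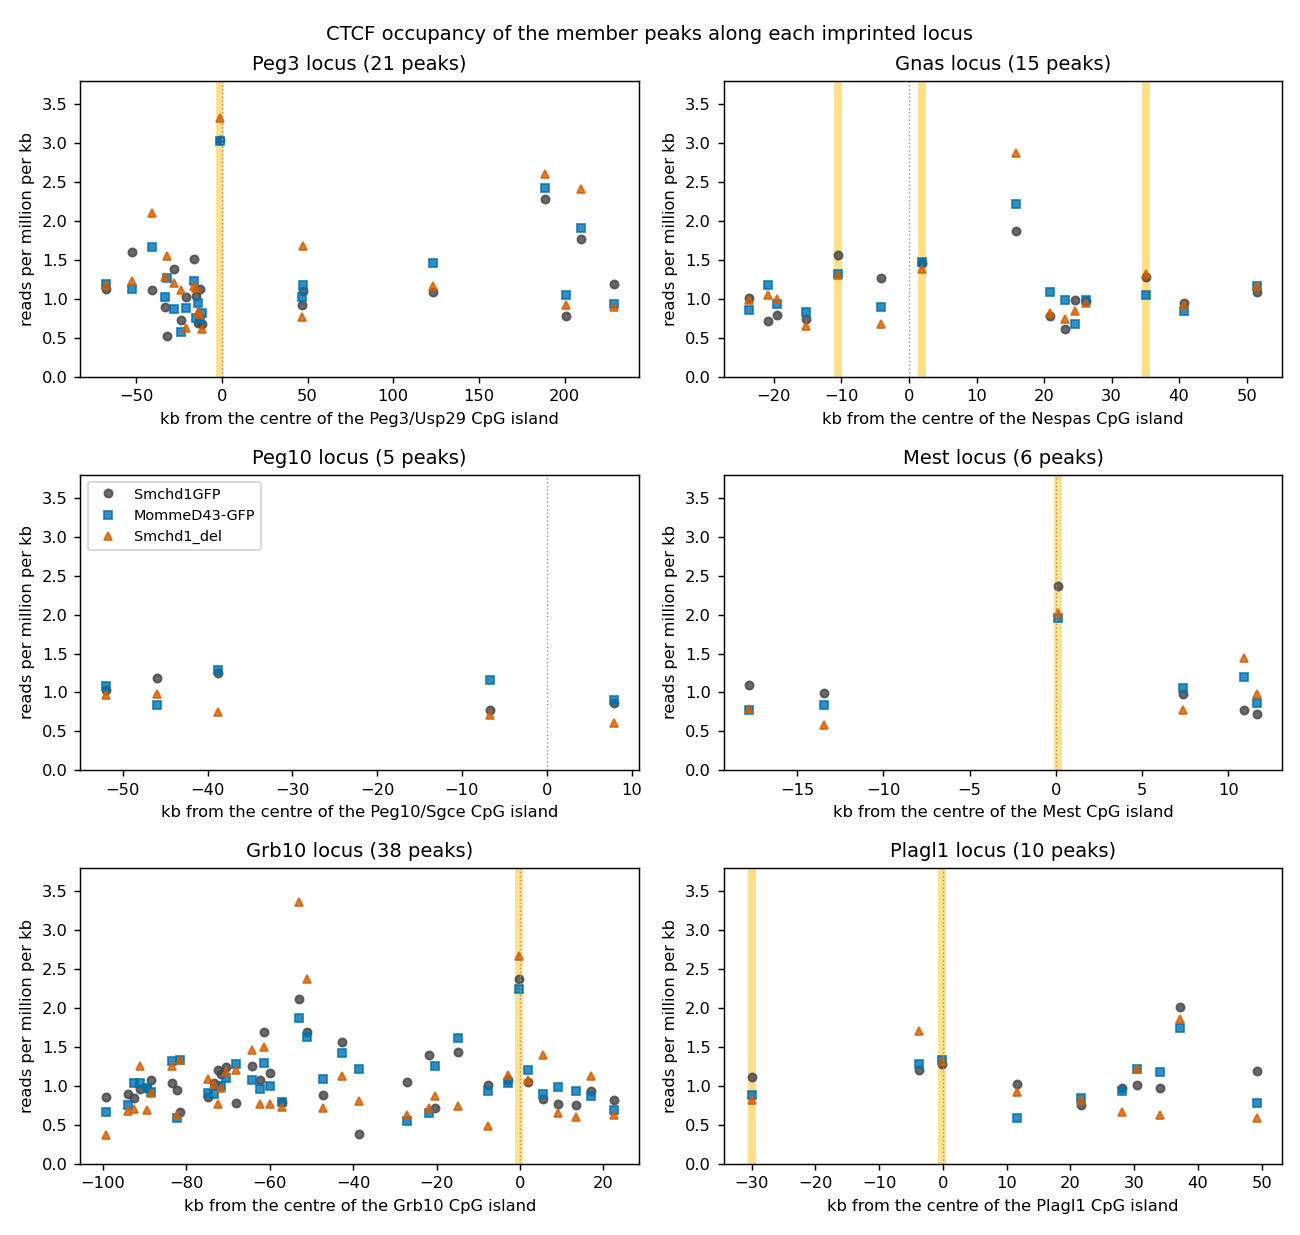
CTCF occupancy (y axis, RPM per kb of peak) of each member by its distance in kb from the centre of the named CpG island (x axis, dotted line at 0, genome orientation), with 1 panel per locus, circles for Smchd1GFP, squares for MommeD43-GFP and triangles for Smchd1_del, and control region peaks in yellow. The Peg3 and Mest control region peaks are the highest of their loci, the Peg10 island has no peak, and most other members sit near 1 RPM per kb.

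None of the 8 control region peaks differed by 2-fold in any comparison. Over all merged peaks 2.08% were past 2-fold higher and 0.718% lower for MommeD43-GFP less Smchd1GFP. These shares were 3.31% and 1.85% for Smchd1_del less Smchd1GFP, and 1.26% and 1.08% for MommeD43-GFP less Smchd1_del. With shares so small, a count of none among 8 peaks is no result about control regions. The question these comparisons put is whether the MommeD43 allele or loss of *Smchd1* changed CTCF occupancy at imprinted control regions. Between MommeD43-GFP and Smchd1GFP the 8 differences ran from -0.33 to 0.06, with a median of -0.16 and 6 of 8 below 0. Between Smchd1_del and Smchd1GFP, which shares the same control libraries, they ran from -0.44 to 0.17 with a median of -0.02 and 4 of 8 below 0. Between MommeD43-GFP and Smchd1_del they ran from -0.33 to 0.11 with a median of -0.02. At the 5 germline methylated promoters alone the ranges were -0.28 to 0.06, -0.23 to 0.17 and -0.25 to 0.10, with medians of -0.01, 0.05 and -0.05 and 3, 2 and 3 of 5 below 0. The 87 other members spread more widely, from -1.10 to 1.66, from -1.19 to 1.56 and from -0.96 to 1.10, and they held fewer reads per peak. With differences centred on merged peaks of like GC content, 5 control region values changed sign. They were those of Peg3 and Grb10 for MommeD43-GFP less Smchd1GFP and that of Nespas for Smchd1_del less Smchd1GFP. The others were those of Nesp and the main Plagl1 peak for MommeD43-GFP less Smchd1_del. As deposited these were small, at -0.007, -0.08, -0.08, 0.01 and 0.009 in that order. Whether base composition caused the changes was not tested.

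**Figure D2:**
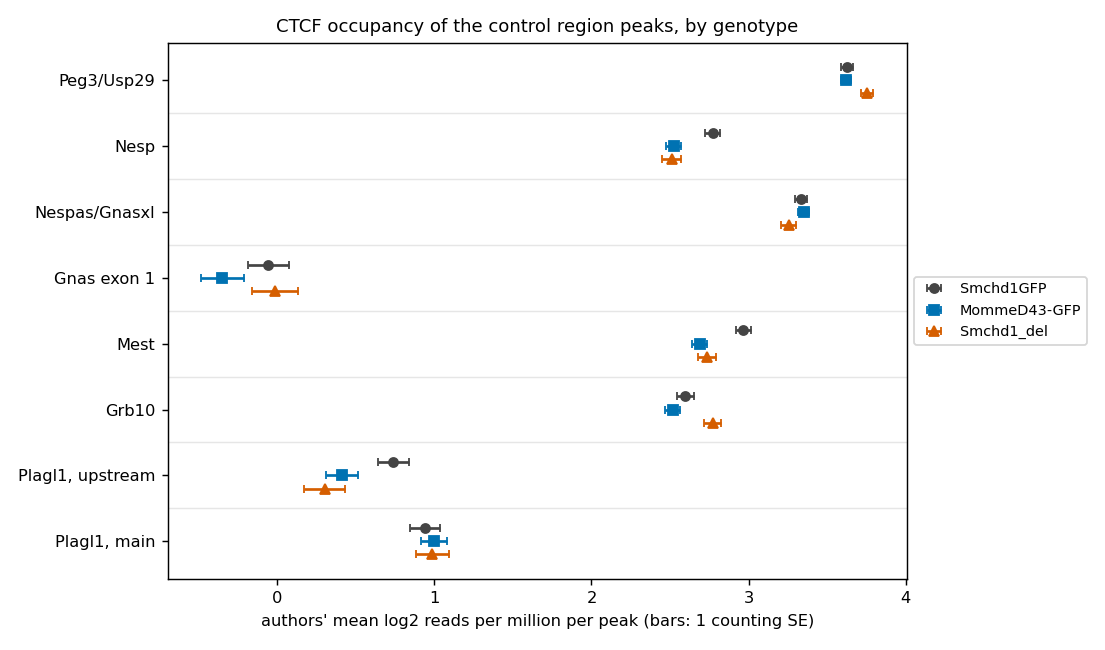
Authors' mean log2 RPM per peak (x axis) of the 8 control region peaks (rows) in Smchd1GFP, MommeD43-GFP and Smchd1_del, with bars of 1 counting SE. Within a row the 3 genotypes lie within 0.44 of each other on the log2 scale.

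At the Peg3 locus the control region peak, chr7:6726751-6730800, covers the promoters of *Peg3* (chr7:6703892-6730431, minus strand) and *Usp29* (chr7:6730578-6967219, plus strand) and reaches into the *Peg3* intron that holds the YY1 copies. Its log2 RPM was 3.63 in Smchd1GFP, 3.62 in MommeD43-GFP and 3.75 in Smchd1_del, from 514, 604 and 673 reads per library. The differences were -0.01 ± 0.05 (counting SE) for MommeD43-GFP less Smchd1GFP, 0.13 ± 0.05 for Smchd1_del less Smchd1GFP and -0.13 ± 0.05 for MommeD43-GFP less Smchd1_del. Centred on peaks of like GC content, the values against Smchd1GFP were 0.13 and 0.28. At 3.13 RPM per kb it was the most occupied member of its locus and stood above 99.2% of all merged peaks. It holds no core motif, which 19.3% of merged peaks of like length do.

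Deep in *Usp29*, peaks with the core motif printed above had the next highest occupancy of the locus, 189 and 209.8 kb from the island. The nearer one, chr7:6917251-6919950, had log2 RPM of 2.63, 2.71 and 2.81 in Smchd1GFP, MommeD43-GFP and Smchd1_del. The more distal one, chr7:6936751-6942450, had 3.34, 3.45 and 3.78, and was thus 0.45 ± 0.06 higher in Smchd1_del and 0.11 ± 0.05 higher in MommeD43-GFP than in Smchd1GFP. The Smchd1_del value stood apart from the other two at the distal peak, while at the nearer peak the 3 values lay within 0.18.

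Around *Zim1* (chr7:6671269-6696450, minus strand), which is expressed from the maternal chromosome, peaks differed in direction. The exon peak chr7:6677251-6678000 had log2 RPM of 0.27, -0.24 and -0.12, which is -0.51 ± 0.17 and -0.39 ± 0.19 from Smchd1GFP, and the peak chr7:6701551-6701850 between *Zim1* and *Peg3* had -1.27, -1.93 and -1.47. The 3 peaks between them were lowest in Smchd1GFP and highest in Smchd1_del. The promoter peak chr7:6688351-6689700 had log2 RPM of 0.60, 1.17 and 1.5, from 63, 111 and 142 reads per library. It was 0.57 ± 0.13 higher in MommeD43-GFP and 0.91 ± 0.14 higher in Smchd1_del than in Smchd1GFP, the latter 1.87-fold. The peak at the most upstream start, chr7:6696001-6697350, had 0.27, 0.47 and 0.80. The 300-bp peak beyond it, chr7:6697651-6697950, had -2.66, -1.39 and -1.10, from 6.59, 18.8 and 23.2 reads per library, which is 1.27 ± 0.38 and 1.56 ± 0.39 above Smchd1GFP. Both differences share the low Smchd1GFP value. The 300-bp peak was the only member of the Peg3 locus past 2-fold. Over all merged peaks 2.08% were past 2-fold higher for MommeD43-GFP less Smchd1GFP. For Smchd1_del less Smchd1GFP 3.31% of them were higher and 1.85% lower. At *Zim2*, another zinc finger gene of the domain and no member, 1 of 6 peaks was past 2-fold higher in Smchd1_del and 1 past 2-fold lower. The former, chr7:6659701-6660750, had -0.39, 0.38 and 0.64, and the latter, chr7:6645451-6646350, had 0.03, -0.33 and -0.98.

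Within the *Peg3* body, too, peaks differed in direction. The exon peak chr7:6707701-6710250, over the last exon, which encodes the zinc fingers, had log2 RPM of 1.39, 1.17 and 0.69, a difference of -0.70 ± 0.14 for Smchd1_del less Smchd1GFP and -0.21 ± 0.11 for MommeD43-GFP less Smchd1GFP. It was broad and shallow at 0.85 RPM per kb, lower than all but 18.7% of merged peaks. The neighboring exon peak chr7:6705451-6706350 had -0.61, -0.95 and 0.01, the lowest MommeD43-GFP less Smchd1_del value of the locus at -0.96 ± 0.22. It was 0.62 ± 0.21 higher in Smchd1_del than in Smchd1GFP, and -0.35 ± 0.23 from Smchd1GFP in MommeD43-GFP. Over its 21 members the Peg3 locus had a median difference of 0.08 for MommeD43-GFP less Smchd1GFP, with 12 above 0. For Smchd1_del less Smchd1GFP it was 0.13, the value of the control region peak itself, with 13 above 0. Over all merged peaks these medians were 0.01 and -0.04.

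The Gnas locus (*Gnas*, chr2:174284320-174346744, plus strand; *Nespas*, chr2:174281237-174295436, minus strand) has several promoters with different imprints. *Nesp* is transcribed from the maternal copy, *Nespas* and *Gnasxl* from the paternal copy and their promoters share a germline methylated region, and a further such region lies at exon 1A. The Nespas and Gnasxl islands lie under 1 peak, chr2:174294301-174301200, the longest of all members at 6900 bp. It had log2 RPM of 3.33, 3.35 and 3.25 in Smchd1GFP, MommeD43-GFP and Smchd1_del, from 420, 501 and 477 reads per library. The differences were 0.02 ± 0.06, -0.08 ± 0.06 and 0.10 ± 0.06 in the order MommeD43-GFP less Smchd1GFP, Smchd1_del less Smchd1GFP and MommeD43-GFP less Smchd1_del, so the genotypes lay within 0.10. With GC centring the values against Smchd1GFP were 0.15 and 0.079.

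The Nesp promoter peak, chr2:174283051-174287400, had 2.77, 2.52 and 2.51. The mutant columns lay -0.25 ± 0.07 and -0.26 ± 0.08 from Smchd1GFP and 0.01 ± 0.08 from each other. With GC centring the values against Smchd1GFP were -0.11 and -0.10. At *Gnas* exon 1 a 750-bp peak, chr2:174330451-174331200, had -0.06, -0.35 and -0.01, from 38.7 to 49.5 reads per library. The mutant columns lay -0.29 ± 0.19 and 0.04 ± 0.20 from Smchd1GFP there, and -0.16 and 0.20 with GC centring. The exon 1A island, chr2:174326919-174328148, held no peak, the nearest member lying 2303 bp away.

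The most occupied member of the Gnas locus per kb was none of these. It was an intronic peak 15.8 kb from the Nespas island, chr2:174310351-174312900, at 2.33 RPM per kb, above 97.2% of all merged peaks. Its log2 RPM was 2.26 in Smchd1GFP, 2.50 in MommeD43-GFP and 2.88 in Smchd1_del, from 200, 278 and 367 reads per library. The values were 0.24 ± 0.08 and 0.62 ± 0.08 above Smchd1GFP, and the MommeD43-GFP value lay -0.38 ± 0.07 from Smchd1_del. It holds 1 relaxed motif and no core motif.
Gnas intron, chr2:174311087-174311146, minus strand: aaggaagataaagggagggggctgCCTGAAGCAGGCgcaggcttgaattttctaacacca

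The other extreme values of the Gnas locus came from less occupied peaks. The intron peak chr2:174291151-174292200, within *Nespas*, was lowest for Smchd1_del less Smchd1GFP at -0.91 ± 0.20, with log2 RPM of 0.41, -0.08 and -0.50. The intergenic peak chr2:174274501-174275250 was highest for MommeD43-GFP less Smchd1GFP at 0.71 ± 0.22 and the intron peak chr2:174319951-174320700 lowest at -0.53 ± 0.22. No member of the locus passed 2-fold in any comparison, where 0.718% to 3.31% of all merged peaks did, by comparison and direction. The locus medians were 0.02, -0.03 and 0.01 in the 3 comparisons.

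At the Peg10 locus (*Peg10*, chr6:4747306-4760517, plus strand; *Sgce*, chr6:4674350-4747207, minus strand) no member lay at the control region. The island over both starts, chr6:4746843-4748995, had a GC content of 56.4% and an observed over expected CpG ratio of 0.859, and held neither the core nor the relaxed motif. The nearest member, chr6:4741051-4741500 in *Sgce*, was 5343 bp away and had log2 RPM of -1.53, -0.94 and -1.65 from 14.4, 25.6 and 15.9 reads per library. The island itself is not in the peak list and so has no value here.

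The 5 members of the Peg10 locus had a median of 1.002 RPM per kb, beside 0.995 over all merged peaks. The member with the most reads, chr6:4754401-4757250 over the last *Peg10* exon, had 1.30, 1.35 and 0.79, but at 0.79 RPM per kb it stood above only 8.96% of merged peaks. Its differences were 0.05 ± 0.11 for MommeD43-GFP less Smchd1GFP, -0.51 ± 0.14 for Smchd1_del less Smchd1GFP and 0.56 ± 0.13 for MommeD43-GFP less Smchd1_del. All 5 members were lower in Smchd1_del than in Smchd1GFP, by -0.09 to -0.74 with a median of -0.26, whereas 4 of 5 were higher in MommeD43-GFP, with a median of 0.05. With 5 peaks these counts describe the locus and no more, and 53.4% of all merged peaks were also lower in Smchd1_del.

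The Mest control region peak, chr6:30736351-30739650, covers the promoter of *Mest* (chr6:30723547-30748465, plus strand) from which the paternal copy is transcribed. The log2 RPM there was 2.97 in Smchd1GFP, 2.69 in MommeD43-GFP and 2.74 in Smchd1_del, from 325, 317 and 333 reads per library. The mutant columns lay -0.28 ± 0.07 and -0.23 ± 0.07 from Smchd1GFP and -0.05 ± 0.07 from each other. With GC centring the values against Smchd1GFP were -0.18 and -0.075, the latter within about 1 counting SE of 0. At 2.11 RPM per kb it was the most occupied member of the locus and above 96.0% of all merged peaks.

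The other 5 members of the Mest locus had at most 54.5 reads per library in any genotype. At the *Mest* start farther upstream the peak chr6:30724051-30724800 had -0.42, -0.67 and -1.20, the lowest Smchd1_del less Smchd1GFP value of the locus at -0.78 ± 0.26. Over the last exon of *Copg2*, which converges on *Mest*, a 300-bp peak, chr6:30748651-30748950, had -2.10, -1.48 and -1.21 and the highest values, 0.63 ± 0.33 and 0.90 ± 0.35 above Smchd1GFP. None of the 6 members passed 2-fold, where 0.718% to 3.31% of all merged peaks did, by comparison and direction.

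The Grb10 control region peak, chr11:12024601-12027150, covers the CpG island within *Grb10* (chr11:11930508-12038683, minus strand) from which the paternal copy is transcribed in neurons. The island had a GC content of 64.4% and an observed over expected CpG ratio of 0.991, the highest of the islands, and the peak held neither motif. Its log2 RPM was 2.60 in Smchd1GFP, 2.52 in MommeD43-GFP and 2.77 in Smchd1_del, from 252, 281 and 341 reads per library. The differences were -0.08 ± 0.07, 0.17 ± 0.08 and -0.25 ± 0.07. With GC centring the values against Smchd1GFP were 0.051 and 0.33. At the main promoter farther upstream, which the maternal copy uses in most tissues, the peak chr11:12039001-12040350 had 0.02, 0.33 and -0.31, and at 0.76 RPM per kb it lay below the median of all merged peaks.

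An intronic pair of peaks 52.9 kb from the island was the other occupied part of *Grb10*. The member chr11:11972551-11974050 had 2.45 RPM per kb, the highest of the locus, marginally above the control region peak at 2.43. It had log2 RPM of 1.66 in Smchd1GFP, 1.49 in MommeD43-GFP and 2.34 in Smchd1_del, from 132, 139 and 252 reads per library. It was 0.67 ± 0.10 higher in Smchd1_del than in Smchd1GFP, while MommeD43-GFP lay on the other side at -0.17 ± 0.10, so the 2 mutant columns were -0.84 ± 0.10 apart. Its neighbor, chr11:11974651-11975550, had the same order, 0.61, 0.56 and 1.10. Neither holds a core or relaxed motif.

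**Figure D3:**
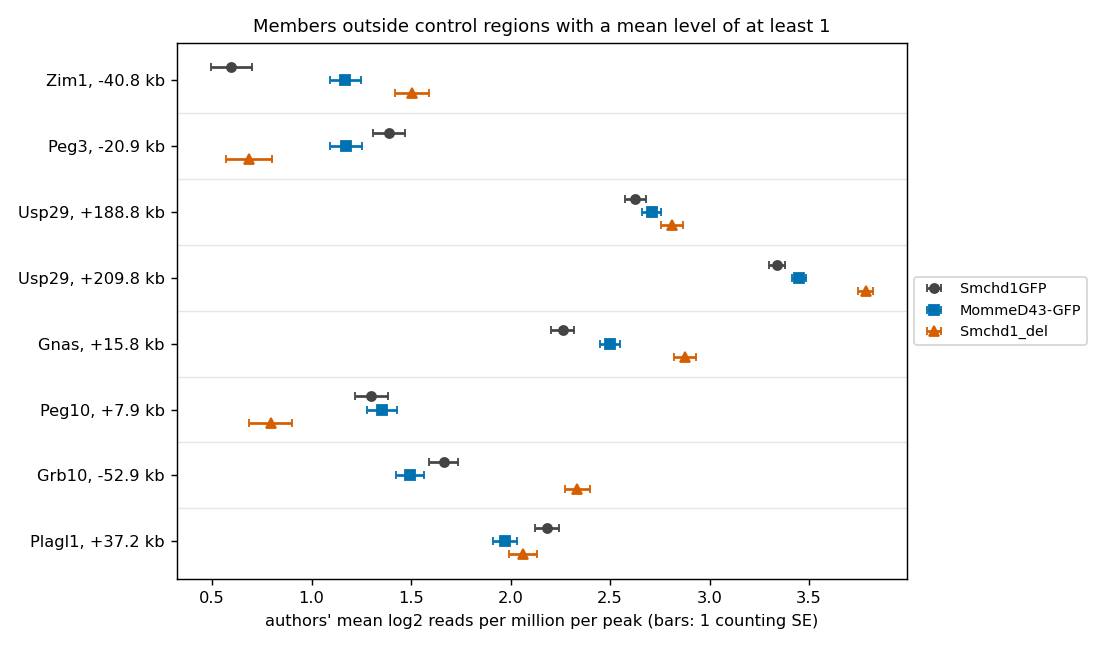
Authors' mean log2 RPM per peak (x axis) of the 8 members outside control regions with a mean level of at least 1 (rows, named by gene and distance in kb from the island of the locus) in the 3 genotypes, with bars of 1 counting SE. Smchd1_del is the highest genotype at the *Zim1*, *Usp29*, *Gnas* and *Grb10* peaks and the lowest at the *Peg3* and *Peg10* exon peaks.

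The Grb10 locus held most of the members past 2-fold, all of them with few reads. It also held 38 of the 95 members, and their median log2 RPM, not divided by length, was the lowest of the loci at -0.78. Their median length was 600 bp, and per kb they had a median of 0.979 RPM, beside 0.995 over all merged peaks. Over all merged peaks 2.08% were past 2-fold higher and 0.718% lower for MommeD43-GFP less Smchd1GFP. For Smchd1_del less Smchd1GFP 3.31% and 1.85% were, and for MommeD43-GFP less Smchd1_del 1.26% and 1.08%. The count is therefore not read as a trait of *Grb10*. For MommeD43-GFP less Smchd1GFP the exon peaks chr11:11987551-11987850 and chr11:11944651-11944950 were higher by 1.66 ± 0.43 and 1.01 ± 0.35, and the intron peak chr11:12004201-12004500 lower at -1.10 ± 0.33. The peak at 11987551 rested on 4.82, 17.9 and 12 reads per library in the 3 genotypes. Both exon peaks were also higher in Smchd1_del, by 1.05 ± 0.48 and 1.01 ± 0.37. The 2 comparisons share the low Smchd1GFP values of these peaks, from 4.82 and 8.28 reads per library, so they are not separate observations. Lower in Smchd1_del were the intergenic peak chr11:11926201-11927550, with log2 RPM of 0.20, -0.17 and -0.99 and a difference of -1.19 ± 0.24, and the intron peak chr11:12018001-12018900, with -0.14, -0.25 and -1.20 and a difference of -1.05 ± 0.26. The intron peak chr11:12011101-12011400 was 1.10 ± 0.35 higher in MommeD43-GFP than in Smchd1_del, with -1.21, -1.05 and -2.15. Over the 38 members the locus medians were -0.10 for MommeD43-GFP less Smchd1GFP and -0.20 for Smchd1_del less Smchd1GFP, each with 23 below 0.

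The Plagl1 locus has its control region at the *Plagl1* promoter (chr10:13060504-13131694, plus strand) used by the paternal copy, under the peak chr10:13090051-13091550. Its log2 RPM was 0.94, 1.0 and 0.99 in Smchd1GFP, MommeD43-GFP and Smchd1_del, from 80 to 99.1 reads per library, and the 3 values lay within 0.06. With GC centring the values against Smchd1GFP were 0.19 and 0.21. A peak at the most upstream start, chr10:13060201-13061700, had 0.74, 0.41 and 0.30, which is -0.33 ± 0.14 and -0.44 ± 0.16 from Smchd1GFP. With GC centring these differences were -0.19 and -0.28. Neither peak held a motif.

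The most occupied *Plagl1* member was instead the one with the core motif printed above, chr10:13126951-13129200, over the last exon, 37.2 kb from the island. It had 1.87 RPM per kb, above 94.2% of merged peaks, and log2 RPM of 2.18, 1.97 and 2.06, with differences of -0.21 ± 0.09, -0.12 ± 0.09 and -0.09 ± 0.09. The intron peak chr10:13086451-13087800, 3.67 kb before the control region, had 0.70, 0.79 and 1.21 and was highest for Smchd1_del less Smchd1GFP at 0.51 ± 0.14. The intergenic peak chr10:13139701-13140600 had 0.11, -0.51 and -0.92 and was the only member of the locus past 2-fold, at -1.03 ± 0.23 for Smchd1_del less Smchd1GFP. Over all merged peaks 1.85% were past 2-fold lower in that comparison. The exon peak chr10:13124551-13125300 had -0.46, -0.18 and -1.08, the highest MommeD43-GFP less Smchd1_del value of the locus at 0.90 ± 0.25. The intron peak chr10:13102201-13102800 was lowest for MommeD43-GFP less Smchd1GFP at -0.79 ± 0.26.

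**Figure D4:**
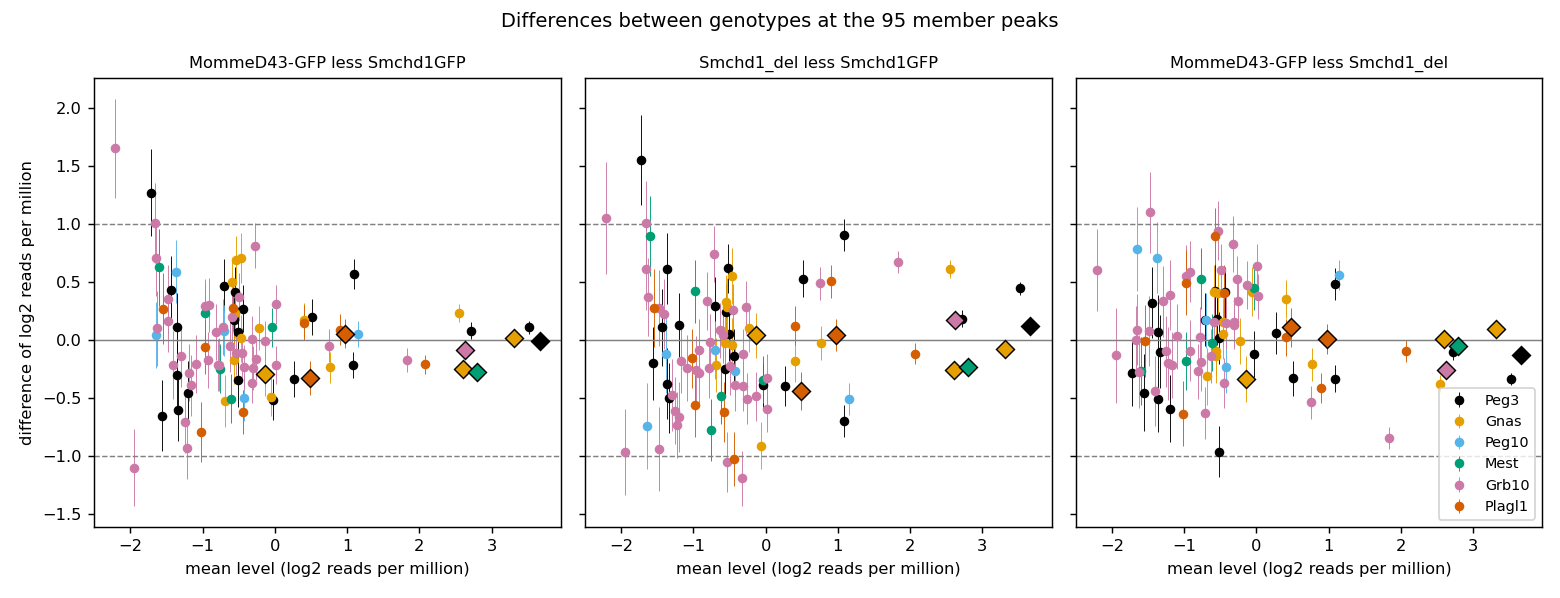
Differences of log2 RPM between genotypes (y axis) at the 95 members against their mean level (x axis, log2 RPM) in the 3 comparisons, with bars of 1 counting SE, dashed lines at 2-fold and diamonds for control region peaks. The values past 2-fold sit at mean levels below 0, and the control region peaks with a level above 2 lie within 0.28 of 0.

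Counted over all 95 members, values past 2-fold were few. For MommeD43-GFP less Smchd1GFP, 3 were higher and 1 lower, where 2.08% and 0.718% of all merged peaks were. For Smchd1_del less Smchd1GFP, 3 were higher and 3 lower, where 3.31% and 1.85% of all merged peaks were. For MommeD43-GFP less Smchd1_del, 1 was higher and none lower, where 1.26% and 1.08% were. No call was tested, and the called members had at most 47.9 reads per library. Scaling moves the split over all merged peaks: of peaks past 2-fold for MommeD43-GFP less Smchd1GFP, 4707 were higher and 1622 lower as deposited, 3092 and 2773 after quantile normalization, and 3689 and 2316 after centring within GC bins. For MommeD43-GFP less Smchd1_del they were 2834 and 2434 as deposited and 2489 and 3922 after quantile normalization.

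Members with many reads differed less. Of the 9 with a mean level of at least 2, none passed 2-fold, and of 18144 merged peaks at that level 0.011% did for MommeD43-GFP less Smchd1GFP, 0.226% for Smchd1_del less Smchd1GFP and 0.0551% for MommeD43-GFP less Smchd1_del. Among these 9, 5 were higher in Smchd1_del than in Smchd1GFP, with a median of 0.13 against 0.04 over merged peaks of that level. The largest values were those of the *Gnas* intron and distal *Usp29* peaks. For MommeD43-GFP less Smchd1GFP their median was -0.01, as over merged peaks of that level. For MommeD43-GFP less Smchd1_del 7 of the 9 were below 0, with a median of -0.10 against -0.05.

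By position, 16 of the 23 exon members were lower in Smchd1_del than in Smchd1GFP, with a median of -0.24, as were 11 of 21 promoter members, 22 of 42 intron members and 53.4% of all merged peaks. In MommeD43-GFP 13 of the 23 exon members were higher than in Smchd1GFP, with a median of 0.05. These differences between positions were not tested.

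The other genes of the same domains were followed as a background of 25 genes, of which *Zim3*, *Zfp264*, *Nelfcd* and *Tfpi2* had no peak of their own. Of the 230 peaks at the remaining genes, 4 were at least 2-fold higher and none lower for MommeD43-GFP less Smchd1GFP, where 2.08% and 0.718% of all merged peaks were. For Smchd1_del less Smchd1GFP 8 were higher and 3 lower, where 3.31% and 1.85% of all merged peaks were. The medians of the 230 peaks, 0.02 and -0.08, lay beside 0.01 and -0.09 for the 95 members. The one with most reads past 2-fold was at *Asb4*, an imprinted gene of the Peg10 domain that encodes a ubiquitin ligase subunit: chr6:5383351-5384850 had log2 RPM of 0.11 in Smchd1GFP, 0.68 in MommeD43-GFP and 1.77 in Smchd1_del. A neighboring peak, chr6:5381851-5383200, had 1.94, 1.87 and 2.26. At *Ddc*, the imprinted neighbor of *Grb10* that encodes dopa decarboxylase, 16 peaks had medians of 0.13 for MommeD43-GFP less Smchd1GFP and -0.08 for Smchd1_del less Smchd1GFP, with none past 2-fold in either.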

How the data were processed

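CTCF ChIP-seq libraries of 3 Smchd1GFP, 3 MommeD43-GFP and 2 Smchd1_del NSC lines were reduced by the authors to 1 table of merged peaks. Per the submitters' processing notes, adapters were cut by cutadapt 2.9 under Trim Galore 0.4.4 and reads aligned to GRCm38 by Bowtie2 2.3.4.1. Reads were extended to the fragment size, and peaks called over each set of replicates were merged. The deposited values are log2 RPM per peak (reads per M reads), averaged by the authors over the libraries of a genotype and not divided by length. Counts of 0 were entered as 0.9 reads, so differences of peaks with few reads are compressed or stretched by that entry. Removal of duplicate reads is not given in the sources used here.

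Library sizes were read back from the steps of the lowest 58 to 60 values, 100% of which were whole reads within 0.0002, and gave reads per peak and a counting SE. These errors cover counting only, and reads are not identified molecules. The computations (Python 3.11.15, pandas 2.3.3) were tested on simulated data. With pooled columns, no test was possible: a member counted as apart at 2-fold. CpG islands were found in GRCm38 (200-base windows, GC at least 50%, observed over expected CpG at least 0.6, at least 300 bases). Motifs were searched on both strands.

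Peaks named were each control region peak, the tallest and the most extreme values of each locus, and members past 2-fold. Some of the most extreme values of the Peg10 and Mest loci were not named by peak. Members with a mean level of at least 1, the *Zim1*, *Grb10* and *Asb4* neighbors, the *Grb10* main promoter peak, the *Zim2* peaks, the set of 5 control region peaks and the YY1 motif were chosen after values or sequences were seen. The members and lists were chosen with earlier results of these data known. The input library was not used.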

Additional observations from a re-analysis of the deposited data

How the results depend on the processing

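Single members past 2-fold were recomputed only as counts. No paired analysis was possible because the columns are pooled over libraries, and for the same reason no library could be left out. Locus medians kept their sign in 110 of 126 recomputed values, and control region differences in 85 of 96. The signs that changed were of values small as deposited, but some locus medians became larger. For MommeD43-GFP less Smchd1_del that of Mest went from -0.03 to 0.45 with a flank of 0 kb and 0.20 at or above the median level. For MommeD43-GFP less Smchd1GFP it went from -0.07 to 0.17 with a 50-kb flank, and that of Peg10 from 0.05 to -0.22 at or above the median level. Of the control region differences 19 moved by more than 1 counting SE, most when centred within 20 bins of GC content. For MommeD43-GFP less Smchd1GFP, GC centring gave 0.13 at Peg3, -0.11 at Nesp, 0.15 at Nespas, -0.18 at Mest, 0.051 at Grb10 and 0.19 at Plagl1. For Smchd1_del less Smchd1GFP it gave 0.28, -0.10, 0.079, -0.075, 0.33 and 0.21 at the same peaks. Quantile normalization gave 0.044 at Peg3 for MommeD43-GFP less Smchd1GFP, -0.35 at Nesp, -0.30 at Mest and 0.081 at Grb10 for Smchd1_del less Smchd1GFP, and 0.032 at Mest for MommeD43-GFP less Smchd1_del. Centring columns on their medians gave 0.19 at Peg3 for Smchd1_del less Smchd1GFP, and a pseudocount of 1 gave -0.26 at the upstream Plagl1 peak.

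Counts past 2-fold moved most. The 50-kb flank took in 150 peaks, the flank of 0 kb 80, and the setting at or above the median level 46. With the pseudocount, 3 of all merged peaks were higher and 4 lower for MommeD43-GFP less Smchd1GFP. For Smchd1_del less Smchd1GFP these were 189 and 2, and for MommeD43-GFP less Smchd1_del 10 and 40. No share of all merged peaks is given at 1.5-fold, so the counts there have no background. For MommeD43-GFP less Smchd1GFP the member counts, higher and lower, were 0 and 0 with a pseudocount of 1 or at or above the median level. They were 9 and 7 at 1.5-fold, with 2 lower after quantile normalization. For Smchd1_del less Smchd1GFP they were 0 and 0 with the pseudocount, 11 and 14 at 1.5-fold, 5 and 5 with a 50-kb flank, 1 higher after quantile normalization or GC centring, 0 higher at or above the median level, and 1 lower after median centring or with a flank of 0 kb. For MommeD43-GFP less Smchd1_del they were 0 higher with the pseudocount or at or above the median level, 3 higher with the 50-kb flank, 10 and 5 at 1.5-fold, and 1 lower after median centring or quantile normalization. Of the locus medians, 7 moved. That of Peg10 became -0.22 at or above the median level for MommeD43-GFP less Smchd1GFP, and for MommeD43-GFP less Smchd1_del 0.18 with the pseudocount, 0.23 with the 50-kb flank and 0.16 at or above the median level. That of Mest became 0.17 with the 50-kb flank for MommeD43-GFP less Smchd1GFP and 0.45 with a flank of 0 kb for MommeD43-GFP less Smchd1_del, and that of Grb10 0.34 at or above the median level for MommeD43-GFP less Smchd1_del. A pseudocount compresses low values and the flank and level settings change which peaks are counted. For the other moves the cause was not tested. A peak of median level carries a counting SE of 0.14 to 0.17 per genotype, and a difference carries the errors of both genotypes. At chr7:6661801-6662400, a member near the median level, the counting SE of a difference was 0.21 to 0.23. A difference of that size in such a peak cannot be told from counting error at this depth.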
